A study of Mus musculus with 39 samples.

Results

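The 8 genes described here were Fkbp5, Tsc22d3, Sgk1, Klf9, Zbtb16, Bcl6, Nr3c1 and Hsd11b2, which are targets or regulators of the glucocorticoid receptor. They were chosen by symbol, and all 8 were found among the 16358 genes of the deposited table of bulk RNA sequencing of mouse duodenum. Every library came from male wild-type C57BL/6 mice, aged 8 weeks, that carried a cannula in a lateral ventricle of the brain and had been without food for 2 h before the injection. Each mouse received 3 µg of leptin or sterile saline through the cannula, and the duodenum was collected 2 h later. The antibiotic groups had ampicillin (1 g/L) and neomycin (0.5 g/L) in their drinking water for 48 h, and the other groups drank plain water. The labels name libraries in 2 ways, called here set MT and set M. Set MT held Leptin-antibiotic, Saline-antibiotic, Leptin-water and Saline-water (6 libraries each), and set M held Leptin-water (7 libraries) and Saline-water (8 libraries). The labels describe the sample as all cells of the duodenum. Whether 2 libraries can share an animal is not stated, so the p-values measure the spread between these samples.

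Library totals lay between 30207536 and 67870777 counts (median 48282125). All 17 genes of an enterocyte marker list had counts in all 39 libraries. In 6 libraries a list of 20 exocrine pancreas genes had a mean log2 CPM (counts per 1000000 counts of a library) of 5.13 to 6.03, against -2.00 to 3.36 in the other 33. These were Leptin-antibiotic replicate 3, Saline-antibiotic replicates 1, 2 and 5, and Leptin-water replicates 6 (set M) and 10 (set MT). Saline-water replicate 10 of set MT stood apart in the 8 genes studied here, with the highest level of its 6 libraries for 6 of the 8 (75.0%), against 16.7% of all genes. For leptin on antibiotic and over all 39 libraries, calls that rested on these libraries are given with and without them. In tissue of mixed cells, fewer cells of a type and less RNA per cell cannot be told apart.

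The glucocorticoid receptor is a hormone-activated transcription factor held in the cytoplasm by the Hsp90 chaperone complex. On binding corticosterone, the main glucocorticoid of mice, it enters the nucleus and acts at paired DNA sites or through other DNA-bound factors. Its targets include genes that limit the signal itself, and in the intestine glucocorticoids are known for effects on ion and nutrient transport, epithelial maturation and mucosal immunity.

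The sequences below show where the searched receptor motifs lay ahead of the annotated starts of these genes. RefSeq promoters (GRCm38.p6) were held for 5 of the 8 genes, as 13 starts of Fkbp5, Tsc22d3, Sgk1, Klf9 and Bcl6. The 250 bases before each start were searched on both strands for the paired element, GNACA and TGTNC with any 3 bases between them, and for the hexamer AGAACA. The paired element was found before 1 of the 13 starts, an internal start of Sgk1, and in 0.387% of 32851 promoters. The hexamer was found before 5 of the 13 starts, in Sgk1, Tsc22d3 and Bcl6, and in 16.1% of all promoters. A match is a description of letters and does not show that the receptor binds there. In the Sgk1 sequence the capitals mark the paired element, which overlaps a hexamer at each end and begins 188 bases before the start, and a further hexamer. In the other sequences, pieces of 66 bases, the capitals mark the hexamer.
Sgk1, chr10:21993640-21993889, plus strand: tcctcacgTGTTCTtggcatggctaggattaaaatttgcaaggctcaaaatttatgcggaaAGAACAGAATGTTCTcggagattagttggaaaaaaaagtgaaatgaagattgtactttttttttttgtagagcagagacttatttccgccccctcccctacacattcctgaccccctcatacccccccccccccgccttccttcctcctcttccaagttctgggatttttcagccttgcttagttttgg
Sgk1, chr10:21881959-21882024, plus strand: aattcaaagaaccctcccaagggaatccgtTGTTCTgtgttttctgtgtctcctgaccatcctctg
Bcl6, chr16:23981372-23981437, minus strand: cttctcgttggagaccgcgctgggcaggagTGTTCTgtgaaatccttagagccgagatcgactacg

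In GENCODE vM21 (GRCm38, strand in parentheses) the genes lie as follows, with Fkbp5 at chr17:28399094-28517527 (minus), Tsc22d3 at chrX:140539528-140600659 (minus), Sgk1 at chr10:21882184-21999903 (plus), Klf9 at chr19:23141226-23168134 (plus). The others are Zbtb16 at chr9:48654297-48836222 (minus), Bcl6 at chr16:23965052-23988852 (minus), Nr3c1 at chr18:39410545-39519421 (minus), Hsd11b2 at chr8:105518755-105523988 (plus). Per kilobase of annotated exon, the mean levels over the 39 libraries fell in the order Sgk1, Nr3c1, Klf9, Tsc22d3, Fkbp5, Zbtb16, Bcl6 and Hsd11b2. Sgk1 averaged 66.0 ± 39.3 CPM per kb and Nr3c1 30.9 ± 2.91 (SD, n = 39). Fkbp5 averaged 10.1 ± 5.05 CPM per kb and Hsd11b2, the lowest, 3.00 ± 0.493 (SD, n = 39). Of the neighbours in that order, only Nr3c1 and Klf9 had ranges that did not overlap, with the lowest Nr3c1 library at 25.6 CPM per kb and all of Klf9 below it.

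Leptin was compared with saline in antibiotic-treated mice, which asks what the hormone in the brain did to these duodenal genes with antibiotics in the drinking water. Fkbp5, Tsc22d3 and Bcl6 were higher in Leptin-antibiotic than in Saline-antibiotic libraries, by 2.78-fold, 1.79-fold and 2.00-fold. Sgk1 stood 2.28-fold higher with no overlap between the groups, but missed the threshold. The receptor gene itself, Nr3c1, and Hsd11b2 did not pass the test. By edgeR's quasi-likelihood test, 3 of the 8 genes were called higher (adjusted p of 0.05 or less) and 0 lower, where 0.459% of the 16340 genes tested were called higher. The median log2 fold change was 0.82 over the 8 genes and -0.02 over all genes tested. In 4 of the 8 every Leptin-antibiotic library lay above every Saline-antibiotic library, which held for 1.6% of all genes.

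Fkbp5 encodes FKBP51, a co-chaperone of Hsp90 that lowers the hormone affinity of the receptor and is itself strongly induced by it. It lay between 108 and 220 CPM in Leptin-antibiotic libraries (median 151), against 29.7 to 86.7 CPM in Saline-antibiotic libraries (median 56.7). The 2 groups did not overlap. The log2 fold change was 1.48 ± 0.31 (SE, 95% interval 0.83 to 2.12), with an edgeR adjusted p of 0.0282. On water in set MT, Fkbp5 spanned 86.3 to 188 CPM with leptin (median 116) and 28.6 to 153 CPM with saline (median 99.6). These groups overlapped widely, since 3 Saline-water libraries stood at 130 CPM or more and the other 3 at 69.1 or less. In set M the levels were 48.4 to 126 CPM with leptin (median 69.6) and 44.5 to 120 CPM with saline (median 70.8), nearly the same range. The log2 fold change on water was 0.41 ± 0.31 in set MT and 0.05 ± 0.22 in set M (SE), both below the threshold in edgeR (adjusted p = 0.796 and 0.944).

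Tsc22d3 encodes GILZ, a leucine zipper protein that carries part of the anti-inflammatory action of glucocorticoids. It lay between 80.6 and 115 CPM in Leptin-antibiotic libraries (median 98.2), against 49.8 to 60.5 CPM in Saline-antibiotic libraries (median 57.0). The lowest leptin library therefore stood above the highest saline library, and the log2 fold change was 0.84 ± 0.16 (SE, edgeR adjusted p = 0.0160). On water in set MT it spanned 66.4 to 93.9 CPM with leptin, while 5 of the 6 saline libraries lay between 43.4 and 55.7 CPM and the sixth, replicate 10, at 110. With that library the log2 fold change was 0.44 ± 0.16 (SE, edgeR adjusted p = 0.622). Without it the log2 fold change was 0.72 (edgeR adjusted p = 0.000536). That library was singled out by its high levels of these genes, so the value without it is a description and no test. In set M the leptin libraries spanned 44.5 to 80.6 CPM (median 53.3) and the saline libraries 31.5 to 72.5 CPM (median 43.8). All 7 leptin libraries of set M lay above the saline median, but the log2 fold change of 0.36 ± 0.16 (SE) did not pass in edgeR (adjusted p = 0.298).

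Bcl6 encodes a transcriptional repressor best known from germinal centre B cells and follicular helper T cells. It lay between 35.5 and 45.8 CPM in Leptin-antibiotic libraries (median 41.0), against 16.3 to 23.5 CPM in Saline-antibiotic libraries (median 20.5). The groups did not overlap. The log2 fold change was 1.00 ± 0.17 (SE, edgeR adjusted p = 0.00980), which ranked Bcl6 at place 8 of the 16340 genes by p. On water in set MT the leptin libraries spanned 26.8 to 43.1 CPM, and the saline libraries spanned 16.3 to 25.9 CPM apart from replicate 10 at 46.5 CPM. The log2 fold change there was 0.48 ± 0.17 (SE, edgeR adjusted p = 0.622), and 0.73 without replicate 10 (edgeR adjusted p = 0.0241). The value without it is again a description and no test, since replicate 10 was singled out by its high levels. In set M Bcl6 stood at 23.3 to 40.2 CPM with leptin (median 29.2) and 17.9 to 33.2 CPM with saline (median 22.1), with a log2 fold change of 0.38 ± 0.13 (SE, edgeR adjusted p = 0.208).

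Sgk1 encodes a kinase that promotes epithelial sodium transport and answers both to the glucocorticoid and to the mineralocorticoid receptor. It lay between 481 and 769 CPM in Leptin-antibiotic libraries (median 555), against 91.2 to 376 CPM in Saline-antibiotic libraries (median 298). The groups did not overlap, but Sgk1 varied most of the 8 genes between libraries of one group, with an SD of 0.68 on the log2 scale. Its log2 fold change of 1.19 ± 0.37 (SE, 95% interval 0.43 to 1.95) had an edgeR adjusted p of 0.116. On water in set MT the leptin libraries spanned 223 to 525 CPM (median 390) and the saline libraries 137 to 836 CPM (median 191). The highest saline value, again replicate 10, exceeded every leptin library. In set M the leptin libraries spanned 141 to 430 CPM (median 259) and the saline libraries 74.1 to 343 CPM (median 132). All 7 leptin libraries of set M lay above the saline median, and the log2 fold change was 0.94 ± 0.30 (SE, edgeR adjusted p = 0.179).

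Klf9 encodes a Krüppel-like transcription factor induced by glucocorticoids and thyroid hormone. Its levels were close together throughout, at 85.9 to 109 CPM in Leptin-antibiotic libraries (median 93.5), against 70.9 to 87.7 CPM in Saline-antibiotic libraries (median 77.1). In set MT on water it lay at 78.3 to 115 CPM with leptin (median 94.4) and at 72.7 to 110 CPM with saline (median 82.0). In set M it lay at 74.2 to 99.0 CPM with leptin (median 84.1) and at 63.8 to 86.6 CPM with saline (median 70.4). Leptin libraries were thus slightly above saline libraries in each of the 3 settings, with overlap in all of them. The log2 fold changes were 0.26 ± 0.10, 0.16 ± 0.10 and 0.22 ± 0.06 (SE), none of them called by edgeR (adjusted p = 0.172, 0.751 and 0.158).

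Zbtb16 encodes PLZF, a zinc finger transcription factor that directs innate-like lymphocytes and is also a receptor target in many other cells. It lay between 32.5 and 88.2 CPM in Leptin-antibiotic libraries (median 53.8), against 16.5 to 54.1 CPM in Saline-antibiotic libraries (median 29.5). All 6 leptin libraries lay above the saline median and 3 lay above every saline library. The log2 fold change was 0.80 ± 0.28 (SE, edgeR adjusted p = 0.162). On water the groups covered nearly the same range, at 31.7 to 92.6 CPM with leptin and 33.8 to 73.0 CPM with saline in set MT. In set M the values were 25.0 to 66.8 CPM with leptin and 24.8 to 72.0 CPM with saline. The log2 fold changes on water were 0.06 ± 0.28 in set MT and -0.06 ± 0.22 in set M (SE, edgeR adjusted p = 0.976 and 0.919).

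Of the regulators, Nr3c1 encodes the receptor. It was the steadiest of the 8, with an SD of 0.10 between libraries of one group on the log2 scale. Its level was 234 to 258 CPM in Leptin-antibiotic libraries (median 249), against 254 to 301 CPM in Saline-antibiotic libraries (median 262). All 6 leptin libraries lay below the saline median, though the log2 fold change of -0.10 ± 0.06 (SE) was not called (edgeR adjusted p = 0.416). On water it averaged 239 ± 21.9 CPM with leptin and 239 ± 17.8 CPM with saline in set MT (SD, n = 6 each). In set M it averaged 226 ± 13.7 CPM with leptin (SD, n = 7) and 216 ± 14.9 CPM with saline (SD, n = 8).

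Hsd11b2 encodes the enzyme that turns corticosterone into its inactive form and so shields the mineralocorticoid receptor. It was low, with 139 to 418 counts per library. It lay between 4.94 and 6.38 CPM in Leptin-antibiotic libraries (median 5.75), against 3.67 to 5.53 CPM in Saline-antibiotic libraries (median 5.00), with a log2 fold change of 0.24 ± 0.14 (SE, edgeR adjusted p = 0.366). In set MT on water it spanned 4.00 to 7.57 CPM with leptin and 4.68 to 7.39 CPM with saline. In set M it spanned 4.12 to 5.61 CPM with leptin (median 5.30) and 4.96 to 7.05 CPM with saline (median 5.64). There the direction differed, since all 7 leptin libraries lay below the saline median, at a log2 fold change of -0.23 ± 0.10 (SE, edgeR adjusted p = 0.286).

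**Figure D1:**
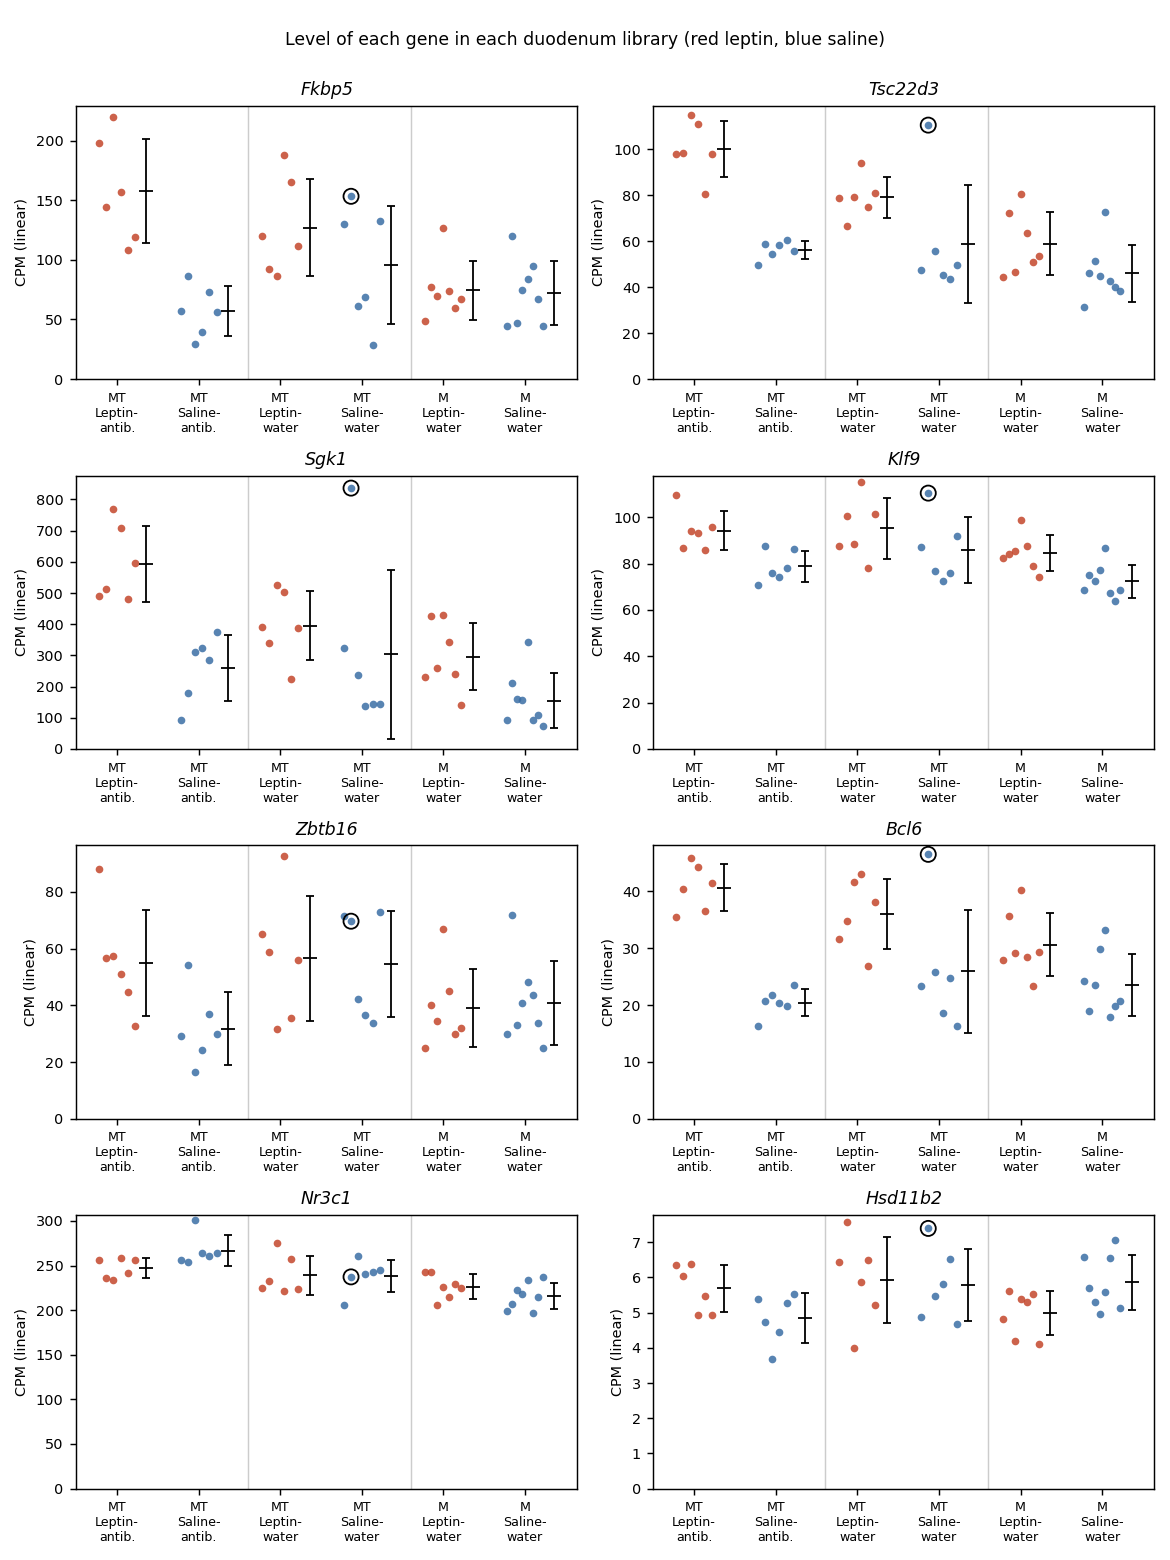
Level of each gene (CPM, linear axis from 0) in each library of the 6 sets and groups, red for leptin and blue for saline, with the mean and SD as black bars beside the points. Points of Fkbp5, Tsc22d3, Sgk1 and Bcl6 did not overlap between the antibiotic groups, and the circled library, Saline-water replicate 10 of set MT, lay above the rest of its group for Tsc22d3 (110 CPM), Sgk1 (836 CPM) and Bcl6 (46.5 CPM).

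The 3 calls on antibiotic differed in how they held when libraries were left out. Bcl6 was called in each of the 12 fits that left out 1 Leptin-antibiotic or Saline-antibiotic library, with 1 to 3 of the 8 genes called. The count was 1 without Leptin-antibiotic replicate 2 or 3 or Saline-antibiotic replicate 1 or 4. Without the 6 libraries with high pancreas genes, 5 Leptin-antibiotic and 3 Saline-antibiotic libraries remained and edgeR called none of all genes tested (1331 had an unadjusted p under 0.05). In that fit Fkbp5 had a log2 fold change of 1.80, Bcl6 of 0.86 and Tsc22d3 of 0.80 (edgeR adjusted p = 0.256, 0.304 and 0.307). Enterocyte markers moved with the same contrast, since all 17 had a positive log2 fold change (median 0.35) and 1 was called higher. Of all genes tested 46.4% were positive and 0.459% were called higher. Their summed share of counts was 3.96% to 5.64% in Leptin-antibiotic libraries (median 4.79%), against 2.48% to 4.28% in Saline-antibiotic libraries (median 3.73%). The other marker lists ranged from 0 of 14 positive for smooth muscle (median -0.13) to 5 of 10 for macrophages and dendritic cells (0.02). Stem cell and cycle genes were positive in 1 of 12 (median -0.25). The part of these lists in the result was not tested.

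On water, none of the 8 genes passed the edgeR test across all genes in either set. By edgeR, 0 of the 8 genes were called in set MT, where 0% of all genes tested were called, and 0 in set M, where 0.0306% were. DESeq2 and limma called 0 of the 8 in each set. Of all genes DESeq2 called 5 in set MT and 277 in set M, and limma 0 and 10. An unadjusted edgeR p under 0.05 was found for 2 of the 8 in set MT, against 7.31% of all genes, and for 5 of the 8 in set M, against 14.9% of all genes. With both sets in 1 fit and set as a term (13 Leptin-water against 14 Saline-water libraries), 0 of the 8 were called by edgeR, 0 by DESeq2 and 1 by limma. Of all genes edgeR called 51 (0.312%), DESeq2 173 and limma 128. In the edgeR fit 4 of the 8 had an unadjusted p under 0.05, against 11.4% of all genes, namely Bcl6, Klf9, Tsc22d3 and Sgk1. Their log2 fold changes were 0.42 ± 0.13, 0.19 ± 0.06, 0.39 ± 0.13 and 0.69 ± 0.26 (SE). Fkbp5 stood at 0.21 ± 0.21, Zbtb16 at -0.01 ± 0.18, Nr3c1 at 0.04 ± 0.04 and Hsd11b2 at -0.11 ± 0.09 (SE).

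The counts in set MT and over both sets changed without Saline-water replicate 10 of set MT. Without it, edgeR called 2 of the 8 in set MT (Tsc22d3 and Bcl6) and 4 of the 8 in both sets together (Sgk1, Bcl6, Tsc22d3 and Klf9). Of all genes it then called 10 in set MT and 147 over both sets, against 0 and 51 with that library. Among the other 5 saline libraries of set MT, Tsc22d3 averaged 48.2 ± 4.77 CPM (SD, n = 5), and all 6 leptin libraries lay above every one of them. The same held for Bcl6, whose other 5 saline libraries averaged 21.8 ± 4.17 CPM (SD, n = 5). Replicate 10 was singled out by its high levels of these same genes, so the calls and the separation without it are a description and no test. How many of all genes separated in this way was not counted. The library was also the highest of its group for 21 of 41 other receptor-induced genes (51.2%) and for 9 of 17 enterocyte markers (52.9%), against 16.7% of all genes. The same held for 5 of 10 stomach and Brunner gland genes (50%), and the other marker and pathway lists gave 0% to 30%. In set M, leaving out Saline-water replicate 5 gave 2 calls (Sgk1 at 1.21 and Klf9 at 0.26). Of all genes 130 were called there, against 5 with that library. Replicate 5 was the highest saline library for Tsc22d3, Sgk1, Klf9 and Bcl6, so these calls too are a description and no test. The 15 fits that each left out 1 library of set M gave 0 to 2 calls.

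With 1 common leptin effect over all 39 libraries, and the 3 settings as terms, 4 of the 8 genes were called higher by edgeR, against 2.21% of all 16358 genes. Bcl6 rose by 0.60 ± 0.10 on the log2 scale (SE, edgeR adjusted p = 0.000801) and Tsc22d3 by 0.53 ± 0.10 (adjusted p = 0.00195). Sgk1 rose by 0.84 ± 0.21 (SE, edgeR adjusted p = 0.0191) and Klf9 by 0.21 ± 0.05 (adjusted p = 0.0107). Bcl6 lay above the mean log2 CPM of its own saline group in 19 of 19 leptin libraries, and Tsc22d3, Sgk1 and Klf9 in 18 of 19. For Fkbp5 this held in 16, for Zbtb16 in 13, for Hsd11b2 in 10 and for Nr3c1 in 7. The share over all genes was not counted. Fkbp5, at 0.59 ± 0.19 (SE, edgeR adjusted p = 0.0816), was not called. Without Saline-water replicate 10 it reached 0.65 (edgeR adjusted p = 0.0421), in a fit that called 742 of all genes, against 492 with that library. Replicate 10 was the highest of its group for Fkbp5 and was left out after seeing the data. The value without it is therefore a description and no test. Zbtb16, Nr3c1 and Hsd11b2 stood at 0.23, -0.0071 and -0.0046 and were not called. Without the 6 libraries with high pancreas genes 3 of the 8 were called, and Sgk1 was not (log2 fold change 0.68, edgeR adjusted p = 0.111). In that fit 295 of all genes were called in either direction, against 492 with those libraries. Enterocyte markers moved with this contrast too, since all 17 had a positive log2 fold change (median 0.17) and 3 were called higher. Of all genes 45.2% were positive. The other marker lists ranged from 1 of 12 positive for stem cell and cycle genes (median -0.16) to 19 of 20 for exocrine pancreas genes (1.28). The part of these lists in the result was not tested. This comparison shares its libraries with the 3 single ones above.

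**Figure D2:**
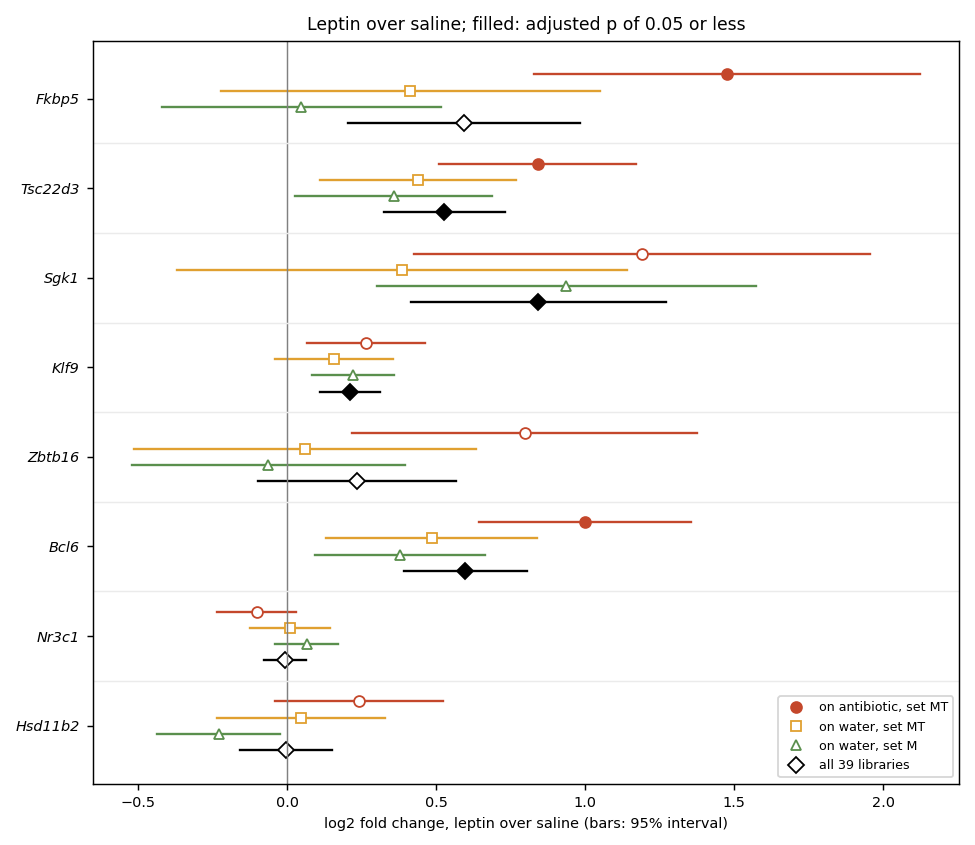
Log2 fold change of leptin over saline with its 95% interval for each gene on antibiotic, on water in set MT, on water in set M and over all 39 libraries; filled symbols passed an edgeR adjusted p of 0.05. Fkbp5 had the highest value on antibiotic (1.48) and stood near 0 in set M (0.05), while Bcl6 and Tsc22d3 lay above 0 in all 4.

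Whether the leptin effect differed between antibiotic and water was tested as the difference of the 2 log2 fold changes within set MT. By edgeR 0 of the 8 genes were called, with 0% of all genes, and DESeq2 and limma also called 0. The difference was largest for Fkbp5 at 1.06 ± 0.44 (SE, 95% interval 0.16 to 1.96, unadjusted edgeR p = 0.0226, adjusted p = 0.772). Bcl6 followed among those with an unadjusted p under 0.05, at 0.52 ± 0.24 (SE, unadjusted edgeR p = 0.0428). These 2 of the 8 had an unadjusted p under 0.05, against 6.38% of all genes. Sgk1 stood at 0.80, Zbtb16 at 0.74, Tsc22d3 at 0.40, Hsd11b2 at 0.19, Klf9 at 0.11 and Nr3c1 at -0.11. Saline-water replicate 10, the highest of its group for 6 of the 8 genes, enters this difference on the water side. It stood at 153 CPM for Fkbp5, 46.5 for Bcl6, 836 for Sgk1 and 110 for Tsc22d3. The other 5 saline libraries averaged 84.3, 21.8, 197 and 48.2 CPM. Its high levels lower the leptin effect on water and so raise the difference for the 6 genes in which it was highest. With 0 of the 8 called, a different response on antibiotic was not shown for any of them. The difference of the leptin effects between set MT and set M on water also gave 0 calls among the 8 in edgeR, DESeq2 and limma. Of all genes edgeR called 0.0428%, DESeq2 75 genes and limma 0. By edgeR 0 of the 8 had an unadjusted p under 0.05, against 9.86% of all genes. The widest 95% interval of this difference was that of Sgk1, at -1.63 to 0.54 around -0.54. The others stood at 0.37 for Fkbp5, 0.28 for Hsd11b2, 0.13 for Zbtb16, 0.11 for Bcl6, 0.09 for Tsc22d3, -0.05 for Nr3c1 and -0.06 for Klf9.

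The antibiotic was compared with water within set MT, separately for saline and leptin. In saline-injected mice 0 of the 8 genes were called by edgeR, DESeq2 or limma. Of all genes edgeR called 0.196%, DESeq2 183 genes and limma 81. Unadjusted edgeR p-values under 0.05 were found for Fkbp5, Zbtb16 and Nr3c1, against 12.5% of all genes. Zbtb16 averaged 31.8 ± 12.9 CPM in Saline-antibiotic and 54.5 ± 18.8 CPM in Saline-water libraries (SD, n = 6 each), a log2 fold change of -0.77 ± 0.28 (SE, edgeR adjusted p = 0.266). Fkbp5 averaged 57.0 ± 21.0 CPM in Saline-antibiotic and 95.8 ± 49.5 CPM in Saline-water libraries (SD, n = 6 each), a log2 fold change of -0.74 ± 0.31 (SE, edgeR adjusted p = 0.332). Nr3c1 went the other way, with 267 ± 17.4 CPM in Saline-antibiotic and 239 ± 17.8 CPM in Saline-water libraries (SD, n = 6 each; log2 fold change 0.17, edgeR adjusted p = 0.283). The other log2 fold changes were -0.33 for Bcl6, -0.24 for Hsd11b2, -0.21 for Sgk1, -0.11 for Klf9 and -0.05 for Tsc22d3, and without Saline-water replicate 10 those of Sgk1 and Tsc22d3 were 0.41 and 0.23. The low Fkbp5 and Zbtb16 values of the Saline-antibiotic libraries enter both this comparison and that of leptin on antibiotic.

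In leptin-injected mice, again 0 of the 8 were called by edgeR, DESeq2 or limma. Of all genes edgeR called 2.28%, DESeq2 787 genes and limma 1394. By edgeR 1 of the 8 had an unadjusted p under 0.05, against 18.9% of all genes. That gene was Tsc22d3, which averaged 100.1 ± 12.0 CPM in Leptin-antibiotic and 79.0 ± 8.97 CPM in Leptin-water libraries (SD, n = 6 each). Its log2 fold change was 0.35 ± 0.16 (SE, edgeR adjusted p = 0.227), and 5 of 6 Leptin-antibiotic libraries lay above every Leptin-water library. Fkbp5 averaged 158 ± 43.8 CPM in Leptin-antibiotic and 127 ± 40.7 CPM in Leptin-water libraries (SD, n = 6 each), a difference smaller than either spread (log2 fold change 0.32). The others stood at 0.60 for Sgk1, 0.19 for Bcl6, 0.06 for Nr3c1, -0.0043 for Klf9, -0.03 for Zbtb16 and -0.05 for Hsd11b2.

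Saline-water libraries were also compared between the sets. Among Saline-water libraries, 0 of the 8 were called by edgeR, where 17.3% of all genes were, and 3 had an unadjusted p under 0.05, against 31.4% of all genes. Sgk1 stood at 304 ± 271 CPM in set MT (SD, n = 6) and 155 ± 89.0 CPM in set M (SD, n = 8), with an edgeR adjusted p of 0.0686. Replicate 10 of set MT stood at 836 CPM, and the other 5 averaged 197 ± 82.3 CPM (SD, n = 5). The Sgk1 medians were 191 CPM in set MT and 132 CPM in set M. Klf9 stood at 85.8 ± 14.1 CPM in set MT (SD, n = 6) and 72.4 ± 7.20 CPM in set M (SD, n = 8), with an edgeR adjusted p of 0.0647. Nr3c1 stood at 239 ± 17.8 CPM in set MT (SD, n = 6) and 216 ± 14.9 CPM in set M (SD, n = 8), with an edgeR adjusted p of 0.117. Set MT over set M gave log2 fold changes of 0.96 for Sgk1, 0.41 for Zbtb16, 0.40 for Fkbp5, 0.34 for Tsc22d3, 0.24 for Klf9, 0.13 for Nr3c1, 0.13 for Bcl6 and -0.03 for Hsd11b2. DESeq2 called 1 of the 8 (Klf9) and limma 0, where they called 3212 and 2628 of all genes. Anything else that separated the sets cannot be told apart from set itself.

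Among libraries of the same set and group, Fkbp5 and Zbtb16 moved together most closely. After the mean log2 CPM of each set and group was subtracted, their Pearson r over the 39 libraries was 0.81 and their Spearman rho 0.84. Both had a permutation p of 1e-05, the smallest that 100000 shuffles within groups can give (7e-05 adjusted over the 7 relations tested). The r was 0.76 over the 24 libraries of set MT, 0.94 over the 15 of set M, and 0.83 without the 2 libraries farthest in Fkbp5. Of 13125 genes whose mean log2 CPM reached 1, Zbtb16 was the one most correlated with Fkbp5. Prodh, which encodes the proline dehydrogenase of mitochondria, came next with an r of 0.78, then the kinase gene Hipk1 (0.76), the sorting nexin gene Snx10 (0.75) and Hif3a (0.73), which encodes a hypoxia-inducible factor subunit.

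Klf9 and Tsc22d3 followed Fkbp5 less closely, with a Pearson r of 0.54 and 0.53, a Spearman rho of 0.52 and 0.51 and an adjusted permutation p for r of 0.00882 and 0.0134 (39 libraries). Within set MT alone neither reached 0.05 by Pearson's r (adjusted permutation p = 0.0599 and 0.159), and within set M alone neither did (0.115 and 0.0888). By Spearman's rho, Klf9 passed in set MT (rho 0.57, adjusted permutation p = 0.0427) but not in set M (0.51, 0.120), and Tsc22d3 passed in set M (0.69, 0.0190) but not in set MT (0.41, 0.110). Without the 2 farthest libraries, Saline-water replicates 13 and 10 of set MT, r was 0.46 for Klf9 and 0.43 for Tsc22d3. Sgk1 had an r of 0.34 and a rho of 0.32 (adjusted permutation p = 0.151 and 0.108), and within set M an r of 0.55 and a rho of 0.66 (0.106 and 0.0357). Bcl6, which was called with Fkbp5 on antibiotic, had an r of 0.11 and a rho of 0.03 (adjusted permutation p = 0.632 and 0.858). Its r was 0.76 with Sgk1, 0.71 with Tsc22d3 and 0.61 with Klf9, and 0.16, 0.12 and 0.03 with Zbtb16, Nr3c1 and Hsd11b2. These relations, over all 39 libraries with replicate 10 among them, were not tested. Nr3c1 leaned against Fkbp5, with an r of -0.37 and a rho of -0.34 (adjusted permutation p = 0.0634 and 0.0760). Without the 2 farthest libraries its r was -0.42 and its rho -0.35 (adjusted permutation p = 0.0356 and 0.0857). Hsd11b2 had an r of 0.19 and a rho of 0.19 (0.339 and 0.326).

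**Figure D3:**
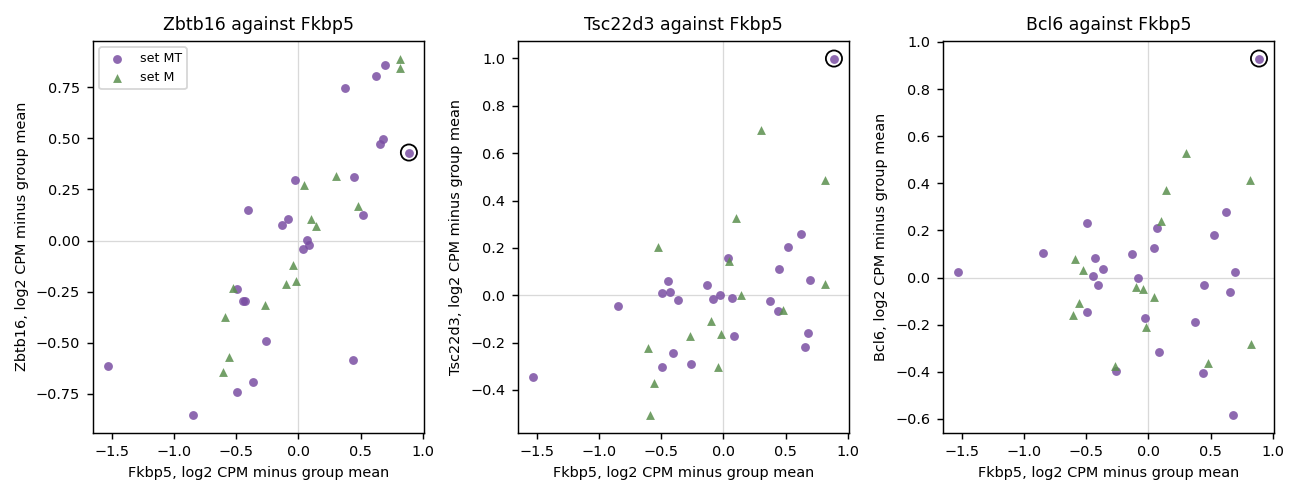
Zbtb16, Tsc22d3 and Bcl6 against Fkbp5 in the 39 libraries, each as log2 CPM minus the mean of its set and group, with circles for set MT, triangles for set M and a ring around Saline-water replicate 10 of set MT. Zbtb16 follows Fkbp5 in both sets (r = 0.81), Tsc22d3 more loosely (r = 0.53) and Bcl6 hardly (r = 0.11).

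Other genes of the pathway were read from lists that describe it. Of 41 other genes known to be induced through the receptor, 40 were tested on antibiotic, and 28 had a positive log2 fold change for leptin, where 46.4% of all genes did. The median was 0.19, against -0.02 over all genes, and 2 were called higher and 0 lower. Per1, a repressor of the circadian clock that glucocorticoids induce directly, averaged 80.7 ± 6.74 CPM in Leptin-antibiotic and 46.6 ± 7.54 CPM in Saline-antibiotic libraries (SD, n = 6 each). Its log2 fold change was 0.80 ± 0.18 (SE, edgeR adjusted p = 0.0397). Usp2, a ubiquitin-specific protease gene with circadian expression, averaged 110 ± 23.2 CPM in Leptin-antibiotic and 67.8 ± 8.49 CPM in Saline-antibiotic libraries (SD, n = 6 each). Its log2 fold change was 0.71 ± 0.14 (SE, edgeR adjusted p = 0.0183). Without the 6 libraries with high pancreas genes neither was called (Per1 at 0.60, edgeR adjusted p = 0.514, and Usp2 at 0.53, adjusted p = 0.369), and 30 of the 40 genes had a positive log2 fold change.

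Over all 39 libraries, 8 of the 41 were called higher and 3 lower, where 2.21% of all genes were called higher and 130 of 16358 lower. A positive log2 fold change was found for 23 of the 41 and for 45.2% of all genes, with a median of 0.04 in the list and -0.01 over all genes. The higher ones included Per1 (0.61), Mertk (0.31), Usp2 (0.39), Hif3a (0.65), Sesn1 (0.27) and Ddit4 (0.63). Mertk encodes a receptor kinase for the uptake of dying cells, Sesn1 a stress sensor and Ddit4 an inhibitor of mTORC1. The lower ones were Cited2 (-0.23), Nfil3 (-0.51) and Cebpb (-0.20), all of which encode regulators of transcription. Without the libraries with high pancreas genes 4 of the 41 were called higher and 3 lower. In that fit 295 of all genes were called in either direction, against 492 with those libraries. Among the genes named, Sesn1, Ddit4 and Cebpb were no longer called (edgeR adjusted p = 0.0997, 0.121 and 0.0634). Without Saline-water replicate 10 of set MT the counts were 11 and 3, where 742 of all genes were called in either direction.

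Of the 19 core clock genes, which share Per1, Per2, Cry2 and Nfil3 with that list, 2 were called higher on antibiotic, Per1 and Hlf. Hlf, a clock output transcription factor gene, averaged 33.8 ± 8.82 CPM in Leptin-antibiotic and 15.8 ± 5.14 CPM in Saline-antibiotic libraries (SD, n = 6 each; log2 fold change 1.10 ± 0.26 SE, edgeR adjusted p = 0.0481), and at 1.09 it was not called without the high pancreas libraries (edgeR adjusted p = 0.304). Over all 39 libraries 6 clock genes were called higher (Per1, Hlf, Nr1d2, Ciart, Per2 and Tef) and 1 lower (Nfil3), with a list median of 0.15, where 362 of all 16358 genes were called higher and 130 lower. Without the high pancreas libraries the counts were 4 and 1, where 295 of all genes were called in either direction. Per2 and Tef were then no longer called (edgeR adjusted p = 0.0894 and 0.101).

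The receptor machinery, 18 genes of chaperones and co-regulators such as Hsp90aa1, Fkbp4 and Ncoa1, had 0 calls by edgeR on antibiotic and 0 over all 39 libraries. In these comparisons 3 and 5 of the 18 had an unadjusted edgeR p under 0.05, against 17.2% and 17.1% of all genes, and the list medians were 0.01 and 0.02. Of 16 genes of steroid handling and mineralocorticoid action, 0 were called on antibiotic (4 with an unadjusted edgeR p under 0.05, median 0.17) and 1 over all 39 libraries. That gene was Nr3c2, the mineralocorticoid receptor, at 0.17 ± 0.04 (SE, edgeR adjusted p = 0.00545), and it was also called on water over both sets (0.17, adjusted p = 0.0489). Of 9 inflammatory genes that glucocorticoids repress, 0 were called on antibiotic (2 with an unadjusted edgeR p under 0.05). In that comparison 1 of the 9 had a positive log2 fold change, and the median was -0.22. Over all 39 libraries Il1b, the gene of the cytokine interleukin-1 beta, was called lower (-0.68 ± 0.16 SE, edgeR adjusted p = 0.0149) at a mean log2 CPM of -0.01. Without the high pancreas libraries Nr3c2 and Il1b were still called over all libraries (0.14 and -0.78, edgeR adjusted p = 0.0389 and 0.0194).

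**Figure D4:**
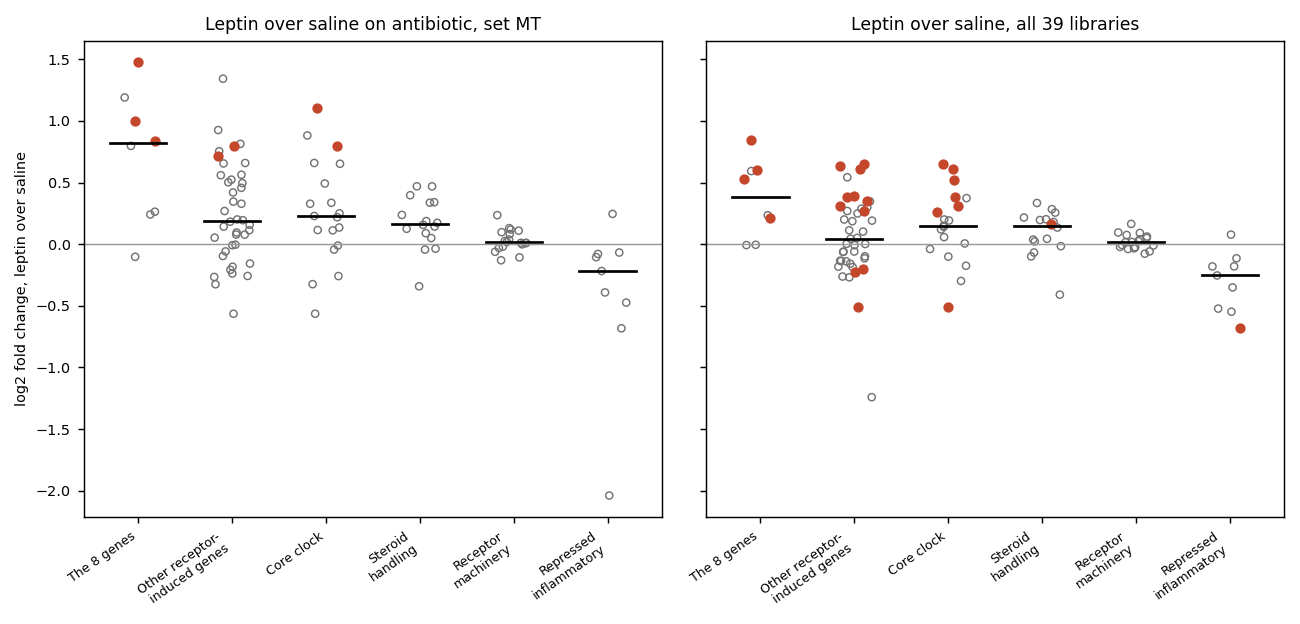
Log2 fold change of leptin over saline for the 8 genes and for the genes of 5 pathway lists, on antibiotic in set MT (left) and over all 39 libraries (right), with filled red points for an edgeR adjusted p of 0.05 or less and black lines for medians. The medians of the 8 genes were 0.82 and 0.38, and those of the receptor machinery 0.01 and 0.02.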

How the data were processed

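The deposited table holds raw read counts per symbol, with no scaling by the authors, for 39 libraries. The submitters' processing notes name HISAT2, featureCounts, FastQC, edgeR 3.42.0 and mm10, without their roles. The libraries were stranded and ribosomal RNA was depleted, per the labels' protocols. For the counting, annotation, strand setting and filter rule were not given in the sources used here, so reads from overlapping or antisense genes cannot be told apart from those of the gene named.

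Counts were tested with edgeR 4.0.16 (R 4.3.3): TMM scaling, filterByExpr on the groups of the fit, the quasi-likelihood F test, and Benjamini-Hochberg adjustment over all genes tested, with a threshold of 0.05. Comparisons within set MT came from 1 fit of its 24 libraries, leptin on water in set M from its 15, and those on water over both sets from 27 libraries with set as a term. Levels are CPM with TMM scaling over all 39 libraries, and log2 CPM used a prior count of 2. Intervals are 95%. Within-group correlations used 100000 shuffles. The alternatives were DESeq2 1.42.0, limma 3.58.1 (voom with quality weights), RLE scaling, no filter, 1 fit of all 39 libraries, pancreas and muscle levels as covariates, a replicate block, and leaving out single libraries or the 6 with high pancreas genes (list mean above 4). The edgeR fits were tested on simulated counts. Positions and exon lengths are from GENCODE vM21 (GRCm38).

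The 8 genes and the lists were chosen with earlier results of these data known, so no list is independent evidence. By rule, all 8 genes are given in each comparison, and of each pathway list up to 6 called genes per direction, by p, together with Per1 and the 5 genes most correlated with Fkbp5. The fit over 39 libraries without Saline-water replicate 10 was added after seeing the data.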

Additional observations from a re-analysis of the deposited data

Results flagged for a closer look

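A single library stood apart in 5 of the 48 combinations of a gene with a set and group, by Dixon's test at the 95% level, which flags about 1 in 20 groups by chance. Of these 5, 3 fell in 1 library, Saline-water replicate 10 of set MT. There Tsc22d3 stood at 110 CPM with the next library at 55.7, Sgk1 at 836 CPM with the next at 324, and Bcl6 at 46.5 CPM with the next at 25.9. Fkbp5 stood at 126 CPM in Leptin-water replicate 4 of set M, with the next library at 76.9 CPM. Nr3c1 stood at 301 CPM in Saline-antibiotic replicate 3, with the next library at 264 CPM. The results without Saline-water replicate 10 are given beside those with it, and the cause of its levels was not tested.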

How the results depend on the processing

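Counts are of the 8 genes called by edgeR unless another tool is named, and single values are log2 fold changes. On antibiotic the 3 calls of leptin remained 3 in DESeq2, limma, RLE scaling, no filter and 1 fit of all libraries. They became 2 with pancreas and muscle covariates (Tsc22d3 at an adjusted p of 0.0531) and 0 without the libraries with high pancreas genes. Leaving out 1 library gave 1 to 3 calls. Fkbp5 had an adjusted p above 0.05 without Leptin-antibiotic replicate 1, 2 or 3 or Saline-antibiotic replicate 1, 3, 4 or 5 (highest 0.114). Tsc22d3 did without Leptin-antibiotic replicate 2 or 3 or Saline-antibiotic replicate 1 or 4 (highest 0.0777). Over all 39 libraries the 4 calls were 5 with limma or without Saline-water replicate 10, and 3 without the high pancreas libraries.

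Leaving out 1 library gave 0 to 4 calls on water over both sets and 0 to 2 each in set MT, in set M and between Saline-water sets. On water over both sets limma gave 1. Between Saline-water sets, DESeq2 gave 1, and 1 fit of all libraries and tissue covariates gave 2 each. The other comparisons stayed at 0.

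Signs of values near 0 turned as follows, and the cause was not tested. With limma the values were -0.038 for leptin on water in set MT (Nr3c1), 0.0083 in set M (Zbtb16) and 0.059 over both sets (Zbtb16), 0.14 and 0.043 for antibiotic in saline (Sgk1, Tsc22d3), -0.022 between Saline-water sets (Bcl6) and 0.011 over all libraries (Hsd11b2). Without the high pancreas libraries they were -0.033 in set MT (Nr3c1), 0.17 for antibiotic in saline (Sgk1) and 0.073 over both sets (Zbtb16). With tissue covariates they were -0.056 in set MT (Nr3c1), 0.31 in set M and 0.0071 over both sets (Zbtb16), 0.065 between Saline-water sets (Hsd11b2), and -0.051, -0.34 and -0.15 for the difference between sets (Bcl6, Tsc22d3, Zbtb16).

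Leaving out 1 library gave these ranges across 0. For leptin on water in set MT they were -0.036 to 0.031 (Nr3c1), -0.038 to 0.13 (Hsd11b2) and -0.13 to 0.18 (Zbtb16). In set M they were -0.13 to 0.19 (Fkbp5) and -0.25 to 0.10 (Zbtb16), and over both sets -0.10 to 0.079 (Zbtb16). For the difference between sets they were -0.82 to 0.065 (Sgk1), -0.0055 to 0.35 (Bcl6), -0.034 to 0.36 (Tsc22d3), -0.14 to 0.016 (Klf9) and -0.082 to 0.30 (Zbtb16). Between Saline-water sets they were -0.11 to 0.24 (Bcl6) and -0.10 to 0.035 (Hsd11b2). For antibiotic in saline they were -0.37 to 0.41 (Sgk1) and -0.12 to 0.23 (Tsc22d3), both highest without Saline-water replicate 10. For antibiotic in leptin they were -0.16 to 0.011 (Hsd11b2), -0.061 to 0.058 (Klf9) and -0.22 to 0.17 (Zbtb16). Without Saline-water replicate 10, Hsd11b2 over all libraries was 0.017.

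Same-numbered libraries were mostly not the most alike, which cannot show whether the samples were paired. The correlation of same-numbered libraries lay between -0.26 and 0.58 on antibiotic (6 pairs), and 1 library correlated best with its own number. It lay between -0.15 and 0.081 in set MT on water (5 pairs) and between -0.28 and 0.25 in set M (7 pairs). There 0 and 2 libraries correlated best with their own number. With the replicate block 2 of the 8 were called on antibiotic (Fkbp5 at 1.49, adjusted p = 0.102), and the block gave -0.0096 for Fkbp5 in set M and -0.056 for Hsd11b2 in set MT. The count of all genes called for leptin on antibiotic was 84 with edgeR, 410 with DESeq2, 549 in 1 fit of all libraries, 13 with the block or tissue covariates and 0 without the high pancreas libraries. Over all 39 libraries it was 492, against 295 to 742 under the alternatives.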

Other observations

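Tat, which encodes the tyrosine aminotransferase long used as a liver readout of the glucocorticoid receptor, differed between the sets. It averaged 0.160 ± 0.054 CPM in Saline-water libraries of set MT (SD, n = 6) and 23.5 ± 16.4 CPM in those of set M (SD, n = 8). The log2 fold change of set MT over set M was -7.23 ± 0.66 (SE, edgeR adjusted p = 1.01e-08). Within set M it ranged from 3.23 to 30.1 CPM with leptin and from 3.13 to 51.5 CPM with saline. Leptin over saline gave a log2 fold change of -1.24 ± 0.40 over all 39 libraries (SE, edgeR adjusted p = 0.0799) and -1.01 ± 0.37 on water over both sets (SE, edgeR adjusted p = 0.254), and neither was called.

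Genes of steroid handling also differed between the Saline-water libraries of the sets. Of 16 genes of steroid handling 4 were called lower in set MT, where 1467 of all 16356 genes were, among them Hsd11b1, whose enzyme regenerates active corticosterone, at -0.95 (edgeR adjusted p = 0.00676) and Nr3c2 at -0.23 (0.00393). With antibiotic against water in leptin-injected mice, Srd5a1, a steroid reductase gene, was called higher at 0.32 (edgeR adjusted p = 0.0395).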
